A study of Mus musculus with 2 samples.

Results

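Mir28a and Mir151 are related microRNA genes that lie inside 2 genes of cell adhesion. Mir28a sits in an intron of Lpp, which encodes a LIM domain protein of focal adhesions and cell contacts that is abundant in smooth muscle. Mir151 sits in an intron of Ptk2, which encodes focal adhesion kinase, the tyrosine kinase that signals from integrins. The 2 genes were chosen by symbol in the GENCODE M21 annotation, from 2202 microRNA genes counted in each library, and both were found in both libraries. The rule uses symbols only and no measured value.

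The libraries came from whole heart tissue of female B6CASTF1/J mice, an F1 hybrid of inbred strains, aged 2 months, with no treatment named. Small RNA below the size limit given in the labels was sequenced. The labels give 1 group of 2 biological replicates, so the data hold a level, its spread between libraries and no contrast of conditions. The replicates are numbered as different females but share a donor label, so the differences between them may be technical as well as biological. Heart tissue mixes muscle, vessel, connective and blood cells, and in such a bulk sample a smaller number of cells of a type and less of the microRNA per cell cannot be told apart.

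A microRNA gene is transcribed as part of a longer RNA, here in the direction of its host gene. The hairpin in that RNA is cut out and diced into a short duplex, and 1 of its arms is usually loaded into Argonaute, where the seed (bases 2 to 8 of the mature strand) pairs with messenger RNAs that are then repressed. The miR-28, miR-151 and miR-708 hairpins belong to a group known to derive from an old family of interspersed repeats. miR-151 is best known for its place in the focal adhesion kinase gene and for effects on cell migration. miR-28 is best known from blood cell and platelet studies. The tables give 1 count per gene, so the 5p and 3p arms of a hairpin could not be counted apart.

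The mature strands of Mir28a and of its relatives Mir28b and Mir708 are shown because they tell which genes share a seed and how far the reads of each can be told apart. They are given 5′ to 3′ from RefSeq on GRCm38.p6, with the seed in capitals.
mmu-miR-28a-5p: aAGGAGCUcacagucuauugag
mmu-miR-28a-3p: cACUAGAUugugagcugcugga
mmu-miR-708-5p: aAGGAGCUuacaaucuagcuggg
mmu-miR-708-3p: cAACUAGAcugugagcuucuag
mmu-miR-28b: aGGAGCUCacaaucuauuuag

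miR-28a-5p lies at chr16:24827868-24827889 and miR-28a-3p at chr16:24827908-24827929, both on the plus strand. Of 1738 mature strands in the RefSeq table, miR-708-5p was the only other one with the seed of miR-28a-5p. No other strand carried the seed of miR-28a-3p. Over the whole compared strand, seed included, miR-28a-5p and miR-708-5p matched at 16 of 22 positions, and all differences lay past the seed, with the substitutions C9U, G13A, U18G, U19C, G20U and A21G (the miR-28a-5p base first, counted from 1 at its 5′ end). miR-28b starts 1 base further in than miR-28a-5p. It therefore has another seed, although it matched at 19 of the 21 compared positions, with G13A and G20U. Between the 3p strands of Mir28a and Mir708 17 of 21 compared positions matched, again with starts 1 base apart. Neither miR-28a strand was found whole in any other mature or hairpin entry of that table. Mir151 and Mir28c had no mature entry there, so their seeds and their overlap with miR-28a were not compared.

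In mm10, Mir28a (ENSMUSG00000065494.1) lies on the plus strand at chr16:24827855-24827940, a hairpin of 86 bases. Lpp spans 599072 bases around it, and in its principal transcript Lpp-201 the hairpin lies in intron 8 of 12. That intron is 82814 bases long, and the hairpin starts 65578 bases after the upstream exon and ends 17150 bases before the next. Mir151 (ENSMUSG00000065612.1) lies on the minus strand at chr15:73254815-73254882, a hairpin of 68 bases. Ptk2 spans 218179 bases, and in Ptk2-201 the hairpin lies in intron 22 of 31, which is 14556 bases long, with 2151 bases to the upstream exon and 12337 to the next. The hairpins thus lie in opposite parts of their introns, at 79.2% of the way for Mir28a and 14.8% for Mir151. Both are read in the host's direction, no host transcript holds either in an exon, and each is the only annotated microRNA of its host. The nearest other microRNA gene is 1716997 bases away for Mir28a and 1308939 bases for Mir151, so neither belongs to a close cluster.

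**Figure D1:**
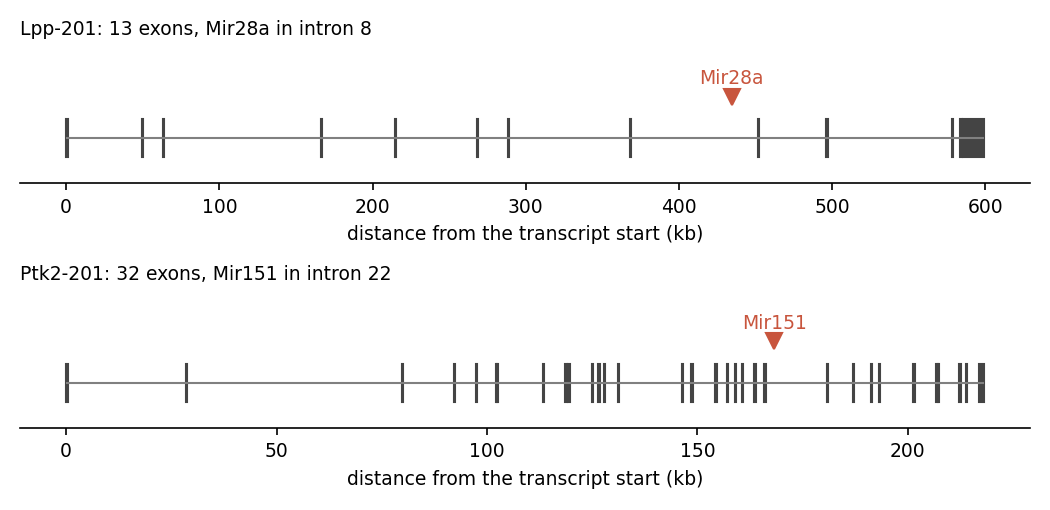
Principal transcripts of Lpp (13 exons) and Ptk2 (32 exons) drawn to scale from the transcript start in kilobases, with exons as dark boxes (thin ones widened to be visible), introns as the line and the hairpin as a triangle. Mir28a lies late in intron 8 of 12 and Mir151 early in intron 22 of 31.

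Replicate 1 held 8069273 reads and replicate 2 held 7995058, of which 2424441 and 2770301 were counted on a microRNA gene's own strand. Levels are given as CPM, the count scaled to a fixed own-strand total, and CPM is not divided by length. The heart muscle microRNAs Mir208a and Mir499 were present in both libraries (1542 and 5865 CPM, and 4354 and 2641 CPM), while Mir1a-1, Mir133a-1 and Mir133a-2 of the same list were not detected. Reads with several mapping places were counted for no gene, and made up 49.5% of reads in replicate 1 and 42.7% in replicate 2. A low or absent count of a gene with near-identical copies, such as Mir1a-1, Mir1a-2, Mir133a-1, Mir133a-2 or Mir199a-1, is therefore no measure of its level. The erythroid list of Mir451a, Mir144 and Mir486 made up 1.15% of the counts of replicate 1 against 9.56% of those of replicate 2, the widest gap among 6 cell type lists. Of 4 listed leukocyte genes found by symbol, out of 5, all were detected. All intervals are computed from the counts alone and cover counting error only. Reads carry no molecular identifiers here, so duplicate reads could not be told apart and the intervals may be too narrow.

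Both microRNAs were well expressed in the heart. Mir151 had 21724 counts in replicate 1 and 15042 in replicate 2, which is 8960 and 5430 CPM, or 7195 ± 2497 CPM (SD, n = 2). It made up 0.896% of counts in replicate 1 (95% exact Clopper-Pearson interval 0.884 to 0.908) and 0.543% in replicate 2 (0.534 to 0.552). Mir28a had 8273 and 4890 counts, which is 3412 and 1765 CPM, or 2589 ± 1165 CPM (SD, n = 2). Its share was 0.341% (0.334 to 0.349) in replicate 1 and 0.177% (0.172 to 0.182) in replicate 2. Replicate 1 was the higher library for both genes, and Mir151 exceeded Mir28a in each library, its lower library lying above the higher library of Mir28a.

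Of the 306 genes detected (at least 10 counts in both libraries), Mir151 ranked 23rd by mean CPM and Mir28a 45th. Ranks and shares leave out the reads with several mapping places, 3992614 in replicate 1 and 3410568 in replicate 2, which outnumber the counted ones. Genes with near-identical copies can thus stand too low in this order. Within single libraries Mir151 ranked 22nd and 29th, and Mir28a 37th and 52nd. The median detected gene stood at 80.1 CPM, so Mir151 lay 89.9-fold and Mir28a 32.3-fold above it. Next to Mir151 in that order stood Mir29a at 7596 ± 6.23 CPM and Mirlet7f-2 at 6869 ± 1474 CPM, and next to Mir28a stood Mir130a at 2655 ± 369 CPM and Mir15a at 2497 ± 609 CPM (SD, n = 2 each). The gaps to these neighbours were smaller than the SD of Mir151 or Mir28a, so the order among these neighbours was not resolved.

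The opposite-strand column was empty at both loci. Mir28a and Mir151 had 0 opposite-strand counts in each library, which allows up to 1.24 CPM (replicate 1) or 1.08 CPM (replicate 2), the limit set by 3 counts. Set against the genes' own reads, that limit is 0.0138% and 0.0199% for Mir151, and 0.0363% and 0.0613% for Mir28a. The counts of Mir28a and Mir151 were therefore identical in the own-strand and either-strand columns. At Mir151 an annotated antisense transcript, 1700085D07Rik, runs over the hairpin on the opposite strand. Its level was not measured, since only small RNA was sequenced.

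The ratio of Mir151 to Mir28a counts does not depend on how a library is scaled. Replicate 1 gave 2.63 (exact interval 2.56 to 2.69) and replicate 2 gave 3.08 (2.98 to 3.18), a mean of 2.85 ± 0.318 (SD, n = 2). Divided by hairpin length it was 3.32 and 3.89. The ratio was 1.17-fold higher in replicate 2 (95% interval 1.12 to 1.22, from counting error), and 2-sided Fisher's exact test on the counts of the 2 libraries gave p = 3.4e-14. The ratio thus differed between the libraries by more than counting error, and by less than either level did.

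The other related genes were much lower than Mir28a and Mir151. Mir708, in an intron of the teneurin gene Tenm4, had 105 and 154 counts, or 49.4 ± 8.68 CPM (SD, n = 2). For each Mir708 count there were 78.8 Mir28a counts in replicate 1 (exact interval 65.0 to 96.4), against 31.8 in the other library (27.0 to 37.5). Mir28b had 3 and 2 counts and Mir28c, in an intron of Samd12, had 1 and 0 counts, all at or under 3 counts. Among the 2 genes whose listed mature strand carries the AGGAGCU seed, nearly all counted reads therefore lay at Mir28a, with the reservation that its count includes the 3p arm. Of the 5 related genes 3 were detected, and Mir28a and Mir151 made up 99.6% of the list's counts in replicate 1 and 99.2% in replicate 2. No gene received the reads with several mapping places, so a level of Mir28b or Mir28c that rests on shared sequence is not measured.

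**Figure D2:**
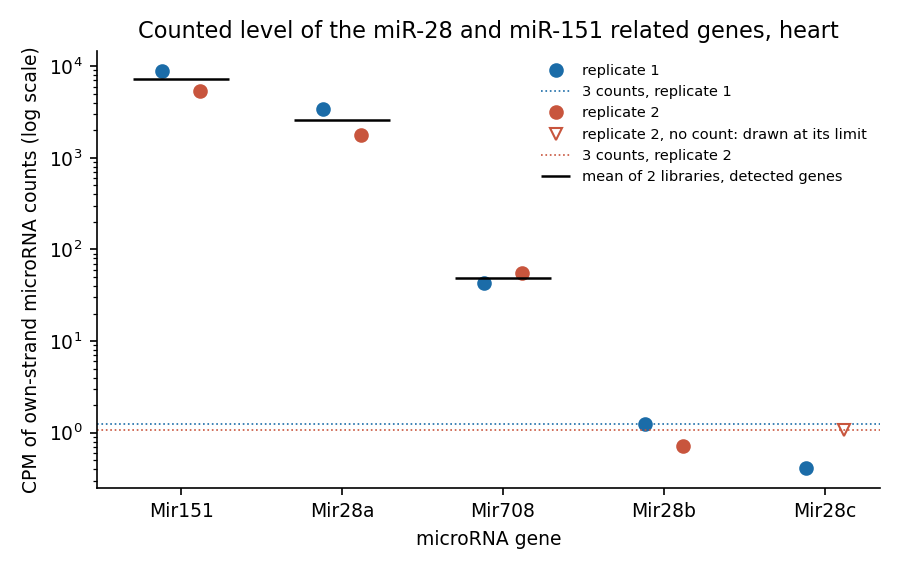
CPM of the 5 related genes on a log axis, 1 point per library, with the mean of the 2 libraries as a bar for detected genes and dotted lines at 3 counts; the open triangle is a library with no count, drawn at its limit. Mir151 and Mir28a stand between 1765 and 8960 CPM, Mir708 near 50 CPM and Mir28b and Mir28c at or under the limit.

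Read against other microRNAs inside genes, both were in the upper part of the range. Of 733 microRNA genes in an intron of a protein-coding gene on the same strand 111 were detected, with a median of 79.2 CPM, and Mir151 ranked 8th and Mir28a 19th of them. A list of 81 genes of focal adhesion, cadherin junctions, actin linkage and cell guidance was taken as hosts, and 14 of them held 16 microRNA genes, of which 9 were detected. Mir151 ranked 3rd and Mir28a 4th of these. Above them were Mir126a at 79461 ± 8214 CPM, the endothelial microRNA of Egfl7, and Mir149 at 19932 ± 7422 CPM, in an intron of the glypican gene Gpc1. Below them were Mir342 at 908 ± 13.6 CPM, in an intron of the actin regulator gene Evl, and then 4 genes under 100 CPM (SD, n = 2 throughout). Mir190a, in an intron of the talin gene Tln2, was chosen for mention after its values were seen, and stood at 43.4 ± 17.4 CPM. The other 7 of the 16 had no count in either library. The 9 detected microRNAs of adhesion hosts ran from 4.05 CPM for Mir218-1, also chosen after its values were seen, to the level of Mir126a.

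**Figure D3:**
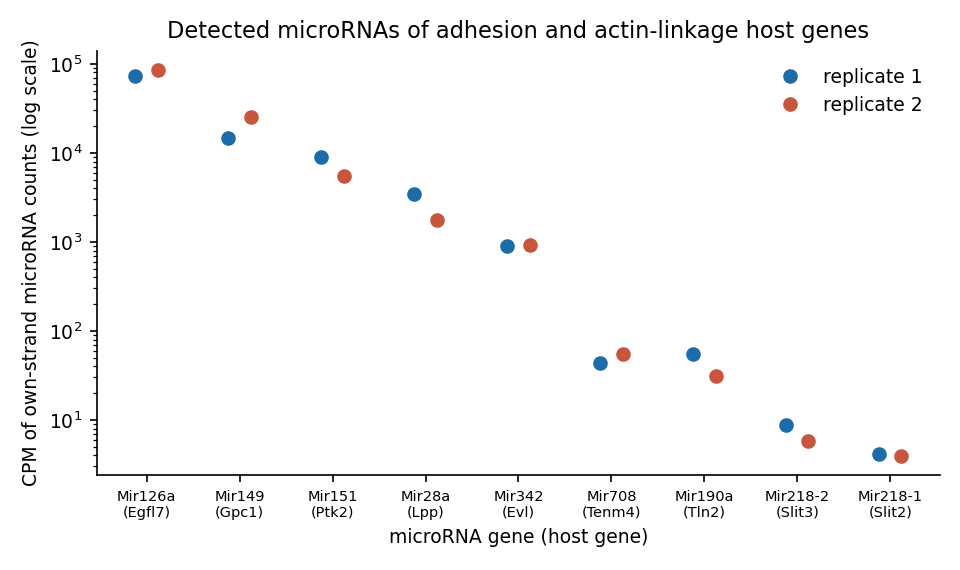
CPM on a log axis of the 9 detected microRNAs whose hosts are on the adhesion and actin-linkage list, 1 point per library, host gene in brackets. Mir151 and Mir28a are higher in replicate 1, and Mir149 is higher in replicate 2.

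Both microRNAs were lower in replicate 2. Mir28a was 1.93-fold lower (exact interval 1.87 to 2.00), a log2 ratio of replicate 2 to replicate 1 of -0.95. Mir151 was 1.65-fold lower (1.62 to 1.69), a log2 ratio of -0.72. Both passed at 0.05 when the counts were compared by an exact binomial test, two-sided and adjusted over the 306 detected genes by Benjamini-Hochberg, Mir28a with an adjusted p of 7.7e-303. For Mir151 the p was too small to be written as a number, with a log10 of -496 before adjustment. The test says that 2 libraries differ beyond counting error and nothing of the spread between animals.

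Such calls were common. By that test 61.1% of detected genes differed in either direction and 41.5% were lower in replicate 2, and 25.5% were lower and also differed by at least 1.5-fold. That both microRNAs fell among the lower genes is read against these shares. Over detected genes the log2 ratio had a median of -0.19 and an SD of 0.83, and 69 of the 306 genes had a larger absolute ratio than Mir28a and 102 a larger one than Mir151. Among the 67 genes of at least 1000 CPM, 9 lay lower than Mir28a and 12 lower than Mir151.

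**Figure D4:**
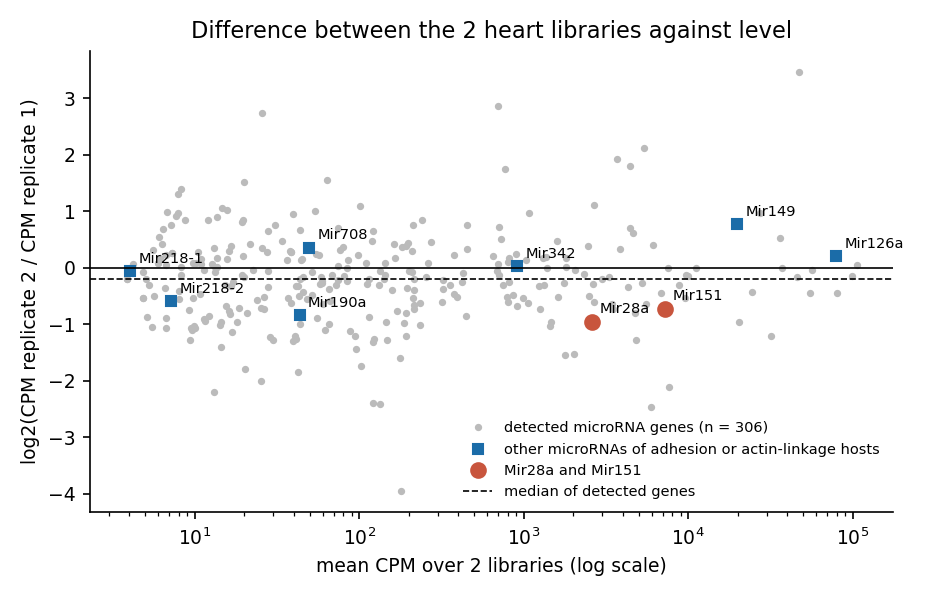
The log2 ratio of replicate 2 over replicate 1 against mean CPM (log axis) for the 306 detected genes, with Mir28a and Mir151 in red, the other microRNAs of adhesion hosts as squares and the median gene as a dashed line. Both red points lie below the median, at -0.95 and -0.72, inside the cloud of other genes.

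The size of the difference depended on the scaling, and its direction did not under the 5 alternatives run. With TMM factors, which moved the median log2 ratio to 0.03, Mir28a was 1.66-fold lower in replicate 2 and Mir151 1.42-fold. With DESeq2 size factors, which put the median at 0, they were 1.69-fold and 1.45-fold lower. Without the erythroid genes in the total, whose share differed most between the libraries, they were 1.77-fold and 1.51-fold lower. Against all reads of the library they were 1.68-fold and 1.43-fold lower, and against either-strand counts 1.74-fold and 1.49-fold. Mir28a thus stayed past 1.5-fold in each, while Mir151 was under it in 4 of the 5. Of the 306 detected genes, 46 were called at least 1.5-fold lower with TMM factors and 49 with DESeq2 factors. Without the erythroid genes in the total it was 58, and against all reads 48. Against either-strand counts it was 48 of 282 genes tested. The either-strand total is an uneven alternative, because that column loses reads where microRNA genes overlap on opposite strands. Mir126a held 11 and 9 counts there, against 178568 and 236222 on its own strand.

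**Figure D5:**
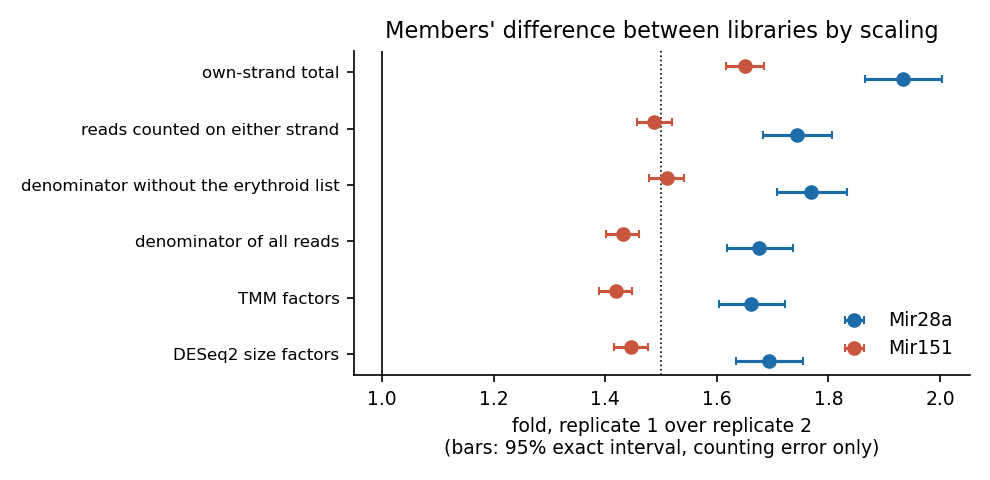
Fold of replicate 1 over replicate 2 for Mir28a and Mir151 under the own-strand total and 5 other scalings, with 95% exact intervals for counting error, a solid line at no difference and a dotted line at 1.5-fold. All points lie right of 1, with Mir28a between 1.66 and 1.93 and Mir151 between 1.42 and 1.65.

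The detected microRNAs of adhesion hosts held calls in both directions, as detected genes did in general. Of the 9, the test called 3 lower in replicate 2 (Mir28a, Mir151 and Mir190a, the last 1.79-fold with an adjusted p of 4.6e-05) and 2 higher (Mir149, 1.71-fold, and Mir126a, 1.16-fold). These 5 calls of 9, 3 of them lower, stand beside 61.1% of all detected genes called and 41.5% called lower, and nothing particular to adhesion hosts is read from them. Their median log2 ratio was -0.05 against -0.19 over all detected genes. Mir342, at 899 and 918 CPM, and Mir708, at 43.3 and 55.6 CPM, did not pass (adjusted p of 0.56 and 0.083 in the exact binomial test), but were called higher in replicate 2 under TMM factors, DESeq2 factors, the total without the erythroid list and the total of all reads. The 3 lower and 2 higher genes kept their call and direction under those 4 scalings. Each of these scalings thus called 4 of the 9 higher and 3 lower, beside 179 to 182 of the 306 detected genes called in either direction. Mir708, which shares its 5p seed with Mir28a, thus went the other way from it between the libraries, 1.28-fold higher in replicate 2 (exact interval 0.995 to 1.66) where Mir28a was lower.

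Levels of cell type markers moved between the libraries too. For each 100 counts of the smooth muscle and pericyte list (Mir143 and Mir145a) there were 6.73 Mir28a counts in replicate 1 and 3.96 in replicate 2, and 17.7 and 12.2 Mir151 counts. For each 100 counts of the endothelium list there were 4.43 and 2.00 Mir28a counts, and 11.6 and 6.16 Mir151 counts. Against the cardiac muscle list Mir28a stood at 56.4 and 20.6 and Mir151 at 148 and 63.3, and against the leukocyte list at 62.2 and 41.6, and 163 and 128. Both genes were thus lower in replicate 2 relative to the summed counts of these 4 lists, and also of the erythroid list (16.1-fold for Mir28a and 13.7-fold for Mir151). Single genes carry some of these sums, so the lower standing holds for the sums and not against each listed gene. Mir451a of the erythroid list stood at 7816 and 86827 CPM, against 1963 and 6858 CPM for Mir144 and 1710 and 1919 CPM for Mir486. Of the leukocyte list, Mir155 stood at 2088 and 2027 CPM, Mir150 at 1897 and 1335 CPM, and Mir142 at 1299 and 840 CPM. Mir223 of that list fell further, from 205 to 39.0 CPM, than Mir28a and Mir151 did. In the cardiac list Mir208a was higher in replicate 2, while the other 3 detected genes were lower there, Mir499 at 4354 and 2641 CPM, Mir208b at 84.1 and 39.3 CPM and Mir1a-2 at 58.2 and 24.2 CPM. Mir208b fell further than Mir28a and Mir151 did, and Mir499 about as far as Mir151. In the smooth muscle list Mir143 held most counts, at 48716 and 43522 CPM, while Mir145a stood at 1951 and 998 CPM, a larger fall than that of Mir151. In the endothelium list Mir126a held most counts and was higher in replicate 2, while Mir221 (3206 and 2812 CPM) and Mir222 (147 and 80.9 CPM) were lower. Relative to the fibroblast list they were higher in replicate 2, at 30.6 and 69.9 for Mir28a and 80.3 and 215 for Mir151, beside a share of that list of 1.12% in the first library and 0.252% in the second. In the fibroblast list Mir21a made up most counts, at 10018 and 1810 CPM, and Mir199a-1 was at 0 in replicate 1. Reads shared by gene copies are missing from all these sums, so the counts of Mir1a-2 and Mir199a-1 are no measure of their level. The part of cell makeup in the difference of Mir28a and Mir151 was not tested.

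The genes closest to each microRNA were taken as those with the smallest distance in log2(CPM + 1) over the 2 libraries. For Mir28a these were Mir98 (3227 and 2118 CPM, distance 0.27), a let-7 family gene in an intron of Huwe1, then Mir15a (2927 and 2066 CPM, distance 0.32) and Mir130a (2916 and 2394 CPM, distance 0.49). For Mir151 they were Mirlet7f-2 (7912 and 5827 CPM, distance 0.21), also in Huwe1, then Mirlet7e (6729 and 4338 CPM, distance 0.52) and Mir29a (7591 and 7600 CPM, distance 0.54). With 2 libraries this measure is mostly one of level. Since Mir28a and Mir151 are lower in replicate 2, closeness in both libraries favours genes that are lower there too, and 41.5% of all detected genes were called lower. Of these 6 genes 5 were called lower in replicate 2, from 1.22-fold for Mir130a to 1.55-fold for Mirlet7e, while Mir29a was not called (adjusted p of 0.95 in the exact binomial test). Mir29a was called higher in replicate 2, by 1.09 to 1.16-fold, under the other 4 scalings of own-strand counts, where the 5 others stayed lower. Mir28a differed by more than its 3 closest genes and Mir151 by more than its 3, and the differences between those folds were not tested.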

How the data were processed

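Small RNA of 2 heart libraries was counted per microRNA gene by the authors on assembly mm10, per the labels, with GENCODE M21 named in the text deposited beside the tables; the aligner, the counter and their versions were not given in the sources used here. Raw counts are what the authors deposited. The 3 count columns have no header and were read from their values as either strand, own strand and opposite strand. The 4 lines that name no gene held 70.0% and 65.3% of own-strand column reads, and stayed out of totals and tests.

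All 2202 gene identifiers matched M21, which gave positions and hosts (same strand, protein-coding, enclosing the hairpin). Own-strand counts were scaled to CPM. Detected means at least 10 counts in both libraries. Libraries were compared by exact binomial tests (two-sided, conditional on library totals, Benjamini-Hochberg adjusted). The tests were tried on simulated counts that held set folds and counting error but no other spread between libraries. Intervals are 95% exact Clopper-Pearson. Alternatives were either-strand counts, other denominators, TMM (edgeR), DESeq2 size factors, other filters, thinning, an edgeR exact test with estimated dispersion, and each replicate alone. Mature sequences came from RefSeq (GRCm38.p6), where 3 of the 5 related genes had a mature entry.

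Named genes were Mir28a and Mir151, their related genes, the 3 closest genes in level to each, and the 5 most abundant microRNAs of adhesion hosts; Mir190a and Mir218-1 were added after values were seen. Mir28a, Mir151 and the lists were put forward with earlier results of these data known, although the rule for the 2 genes uses no value. Tools were edgeR 4.0.16 and DESeq2 1.42.0 (R 4.3.3), and scipy 1.17.1 (Python 3.11.15).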

Additional observations from a re-analysis of the deposited data

Results flagged for a closer look

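Opposite-strand reads, which no level in the report uses, stood above the limit of 3 counts at 2 of the named genes. Mir708 had 5 such counts in replicate 1 (and 1 in replicate 2), beside 105 on its own strand. Mir130a had 34 in replicate 1 and 32 in replicate 2. Mir28a and Mir151 had none.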

How the results depend on the processing

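The fold of replicate 2 over replicate 1 kept its direction for Mir28a and Mir151 under every alternative run, and passed the test in all but 1. The other filters and edgeR's exact test leave the fold itself unchanged, so they could not alter its direction. With edgeR's exact test and an estimated dispersion the folds of 0.517 and 0.606 no longer passed. The unadjusted p of that test was 0.24 for Mir28a and 0.37 for Mir151. By it 2 genes differed between the libraries in place of 187 (17 at an unadjusted p under 0.05). Its dispersion is estimated from the same difference between the 2 libraries that it then tests, so few genes can pass. Beside that spread over all detected genes the differences of Mir28a and Mir151 were not unusual, and the test cannot decide more. With all reads as the denominator, the mean level was 818 CPM for Mir28a and 2287 CPM for Mir151, lower by construction. From single libraries, the level ran from 1765 to 3412 CPM for Mir28a and from 5430 to 8960 CPM for Mir151, and their ratio from 2.63 to 3.08. The genes that were at least 1.5-fold apart were 34 higher and 78 lower in replicate 2, but 52 and 46 with TMM and 48 and 49 with DESeq2 factors. Mir218-1, with 10 and 11 counts and not called, went from a fold of 0.963 to 1.05 without the erythroid list, 1.11 with all reads, 1.12 with TMM and 1.10 with DESeq2 factors, alternatives added for it after its values were seen. No paired analysis was possible because the labels give a single group. The number of libraries, 2, limits every statement on spread, and counts limit Mir28b, Mir28c, Mir218-1, Mir708 and the opposite-strand values.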
